A study of Mus musculus with 2 samples.

Results

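The replication-dependent histone genes of the mouse were described as a gene module in single-cell RNA counts from embryonic brain. They were taken as every row of the count matrices whose symbol begins with Hist1h, Hist2h, Hist3h or Hist4h. The rule found 67 rows among 31053 features. The 54 genes with at least 10 unique molecular identifiers (UMIs, each standing for 1 captured RNA molecule) over both libraries are called members here. The remaining 13 rows held 0 to 9 UMIs, and Hist1h2ba alone had none. Hist2h3c2, with 10 UMIs, lay just inside this minimum and Hist2h3b, with 9, just outside it.

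These genes encode the core histones H2A, H2B, H3 and H4 and the linker histone H1, around which and with which DNA is packed into chromatin. They lie in clusters, are transcribed mainly while DNA is copied, and give mRNAs that end in a conserved stem-loop in place of a poly(A) tail. The stem-loop binding protein SLBP and the U7 small nuclear ribonucleoprotein are needed to form that end. A part of the family is also transcribed as polyadenylated RNA, often from longer 3′ ends that run past the stem-loop and often in cells that have left the cycle. The libraries were primed on poly(A), so the values below count the histone RNA that carried a poly(A) tail or an internal run of A. They do not measure the stem-loop mRNA that lacks one.

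Cells came from the embryonic hypothalamus and thalamus of CD1 mice at E15.5. In each group the embryos of 1 dam were pooled, and cells were sorted for Cd11b together with Cd45, proteins on the surface of microglia and other myeloid cells. The control pool held 10 embryos of an unstressed dam. The stressed pool held 5 embryos whose dam had been placed in the cold (4 °C) for 30 min daily, beginning at E11.5 and lasting 5 days. No transgene or mutant allele is named for either group. Each condition is 1 pool and 1 library, so no difference between conditions has a replicate check and none was tested. Pairs of values are given as control, then stressed, unless the sentence says otherwise. All intervals are exact 95% intervals and cover counting error only.

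The control library held 1156 barcodes and 2833015 UMIs, and the stressed library 1467 barcodes and 6582188 UMIs. Of these barcodes 1068 and 1407 passed the limits of 500 genes and 10% mitochondrial UMIs. Cells were then given a class by counting which of 10 marker genes per cell type were detected. Microglia-like cells numbered 706 (control) and 1167 (stressed), neuron-like cells 145 and 99, border-associated macrophage-like cells 85 and 30, and neural progenitor-like cells 59 and 53. The summed microglial markers stood at 6882 and 7056 CPM (UMIs scaled to a total of 1000000 in the same cells) in microglia-like cells, with all 10 detected in each library. The sort was for myeloid cells, yet neuron-like cells carried neuronal markers at 7048 and 6338 CPM and microglial markers at 57.8 and 192 CPM. Xist without UMIs of Y-linked genes was found in 231 of the 706 control and 1087 of the 1167 stressed microglia-like cells. The libraries shared 13 barcodes, of which 8 (control) and 5 (stressed) belonged to kept cells.

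A cell cycle state was assigned from gene lists that contain no histone gene. A cell was put in the S state when at least 3 of 32 DNA replication genes were detected and their UMIs were at least as many as those of 32 G2/M genes. It was put in the G2/M state when at least 3 of the G2/M genes were detected and their UMIs were more. All others were in neither state. Among microglia-like cells 18.7% of the control and 25.6% of the stressed cells were in the S state, and 14.7% and 16.7% were in the G2/M state. These shares depend on depth: when each cell was thinned to 1100 UMIs before its state was given, they were 10.9% and 10.8% for the S state and 13.1% and 12.0% for the G2/M state. Cells in a cycling state were also deeper. Their median UMI counts were 2997.5 and 4721 in the S state and 2836 and 5358 in the G2/M state, against 1939.5 and 3474 in neither state.

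The annotated 3′ ends are shown because the libraries could capture only RNA with a stretch of A. The stem-loop was searched in the transcripts of the GENCODE annotation on GRCm38, with 5 bases before and up to 5 after it, on the transcript strand and in DNA letters. It was taken as any of the forms printed below and in the next paragraph, with any base allowed at the tenth position of the 16. For each member only the longest protein-coding transcript was searched, so a match in another of its transcripts would be missed. For other genes every protein-coding transcript was searched. Matches were found in 37 of the 54 members and in 3 of 21834 other protein-coding genes (0.0137%). The sites below belong to the H2A gene with the most UMIs, the H2B gene with the most UMIs, the H2A gene that differed most between the libraries among the abundant members, and other members of the H2A, H1 and H4 families that the results name. Capitals mark the 16-base stem-loop.
Hist1h2ap stem-loop: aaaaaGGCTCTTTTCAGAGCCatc
Hist1h2ae stem-loop: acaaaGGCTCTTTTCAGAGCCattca
Hist2h2ac stem-loop: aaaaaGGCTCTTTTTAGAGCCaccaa
Hist3h2ba stem-loop: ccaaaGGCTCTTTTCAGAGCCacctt
Hist1h1c stem-loop: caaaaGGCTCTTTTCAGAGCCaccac
Hist1h4i stem-loop: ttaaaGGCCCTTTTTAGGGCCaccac
Hist1h4h stem-loop: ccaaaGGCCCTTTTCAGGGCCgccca
Hist1h4j stem-loop: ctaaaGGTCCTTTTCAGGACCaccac
The form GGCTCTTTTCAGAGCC was the most frequent, in 24 members, and is printed for H2A, H2B and H1 genes. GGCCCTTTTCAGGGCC and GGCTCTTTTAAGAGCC were found in 5 members each. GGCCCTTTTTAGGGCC, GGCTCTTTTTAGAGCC and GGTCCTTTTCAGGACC were found in 1 member each. The annotated transcript ended fewer than 100 bases after the stem-loop in 17 members and ran on for 100 bases or more in 20, of which 11 held the poly(A) signal letters AATAAA after it. No match was found in the searched transcript of the other 17 members, and in 8 of them that transcript is under 410 bases long.

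A run of 8 or more A was present in the searched transcript of 7 members. The median over the 54 members of the longest run was 4. Runs and UMI counts did not always go together among the H2A genes. Hist1h2ao also has a run of 12 A and received 16 UMIs, and Hist1h2ac has a run of 15 A and received 104. In Hist1h2ak, which received 279 UMIs, the longest run is 3. The runs of Hist1h2ap and Hist1h2ae are shown with 7 bases on either side and the run in capitals.
Hist1h2ap A run: cgaaaagAAAAAAAAAAAAggctctt
Hist1h2ae A run: atctcgtAAAAAAAAcaaaggc
In Hist1h2ap the run of 12 A abuts the stem-loop, and 3 annotated bases follow the stem-loop. In Hist1h2ae the run of 8 A lies 4 bases before the stem-loop, 151 bases follow it, and AATAAA is among them. Whether priming at these runs contributed to the counts was not tested.

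The members sit in 4 places of the genome (GRCm38). The largest cluster, on chromosome 13 from 21715763 to 23764406, holds 44 members, and that on chromosome 3 from 96220361 to 96270132 holds 7. Chromosome 11 holds Hist3h2ba at 58948920 to 58949533 on the plus strand and Hist3h2a at 58954685 to 58956830 on the plus strand. Chromosome 6 holds 1 member. Hist1h2ap lies on chromosome 13 at 21833026 to 21833507 and Hist1h2ae at 23570517 to 23571220, both on the minus strand.

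The genes are near copies of each other, which limits how UMIs can be given to single members. In 22 of the 54 members fewer than 50% of the 75-base windows of the transcript are found in no other gene. For Hist1h2ap that share is 7.35%, and it shares most windows with Hist1h2ao, which received 16 UMIs. For Hist1h2ae it is 65.6%, for Hist3h2ba 86.1%, and for Hist1h1b, an H1 gene, 100%. Counts of single members with a low share are uncertain. A family sum is unchanged when a UMI is given to another copy of the same family. It would still miss UMIs left out because their reads match several genes. In addition, Hist3h2a overlaps Trim17, Hist1h1e overlaps Hist1h2be and Hist2h2bb overlaps Gm42743 on the same strand.

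Promoter sequence was available for 50 of the 54 members in the RefSeq table for GRCm38.p6. The 3 promoters below are those of the H2A genes and the H2B gene on which the comparisons turn. Capitals mark matches on either strand to CCAAT, to TATAAA and to the octamer ATTTGCAT; a match on the other strand appears as its reverse complement.
Hist1h2ap promoter, chr13:21833426-21833725, minus strand: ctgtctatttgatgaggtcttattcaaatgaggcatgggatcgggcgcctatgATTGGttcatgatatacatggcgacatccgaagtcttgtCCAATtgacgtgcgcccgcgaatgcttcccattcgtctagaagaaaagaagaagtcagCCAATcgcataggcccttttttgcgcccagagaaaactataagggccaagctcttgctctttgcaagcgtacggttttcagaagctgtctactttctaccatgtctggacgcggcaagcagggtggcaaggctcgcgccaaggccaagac
Hist1h2ae promoter, chr13:23571171-23571470, minus strand: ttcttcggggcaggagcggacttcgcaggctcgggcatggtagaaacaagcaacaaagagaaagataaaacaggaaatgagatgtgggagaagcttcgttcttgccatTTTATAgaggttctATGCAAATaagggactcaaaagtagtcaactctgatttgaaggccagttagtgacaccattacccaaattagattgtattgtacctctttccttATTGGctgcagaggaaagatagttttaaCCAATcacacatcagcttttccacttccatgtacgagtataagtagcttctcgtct
Hist3h2ba promoter, chr11:58948661-58948960, plus strand: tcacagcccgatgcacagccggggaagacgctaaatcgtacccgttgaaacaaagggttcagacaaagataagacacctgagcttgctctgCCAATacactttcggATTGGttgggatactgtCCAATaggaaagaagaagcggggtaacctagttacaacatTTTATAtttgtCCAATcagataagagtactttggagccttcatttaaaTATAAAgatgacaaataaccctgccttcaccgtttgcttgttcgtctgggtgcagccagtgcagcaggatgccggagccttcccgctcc
The Hist1h2ae window holds all 3 motifs, and the annotated start of Hist1h2bg, on the opposite strand, lies inside it. The Hist1h2ap window holds CCAAT letters on either strand and no match to the other motifs. The Hist3h2ba window holds CCAAT and TATAAA matches. Over the 50 promoters, CCAAT was found in 88% (37.4% of all 32851 promoters in the table), TATAAA in 54% (13.6%) and the octamer in 20% (1.74%). The octamer was in 5 of 15 H2A and 5 of 14 H2B promoters and in none of the 5 H1, 7 H3 and 9 H4 promoters. CCAAT was in all of the H1, H2A, H2B and H3 promoters and in 3 of the 9 H4 promoters. These are matches of letters, not sites of binding.

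The 54 members together held 7513 UMIs, 2528 from control and 4985 from stressed cells, or 892 and 757 CPM over all barcodes. UMIs count captured molecules and were not scaled by transcript length. A few genes carried most of them. Hist1h2ap and Hist3h2ba held 36.9% of the UMIs and the first 12 members 80.2%, whereas 40 members had between 10 and 99 UMIs. H2A genes held 46.9% of the UMIs with 15 of 18 rows as members, and H2B genes 24.5% with 16 of 18. The H1 genes held 13.4% with 5 of 6 rows, the H4 genes 12.2% with 9 of 13, and the H3 genes 3.06% with 9 of 12.

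In microglia-like cells the histone RNA was concentrated in cells in the G2/M state, in each library. That state as defined includes cells that also expressed S list genes. In the control library the members summed to 269 CPM in neither state, 593 in the S state and 1984 in the G2/M state. The stressed library gave 252, 420 and 1848 CPM. The G2/M state was thus at 7.38 and 7.33 times the level of neither state, log2 ratios of 2.88 (2.68 to 3.09) and 2.87 (2.75 to 3.00). The S state was at 2.21 and 1.67 times that level, log2 ratios of 1.14 (0.90 to 1.39) and 0.74 (0.58 to 0.89). When cells were first thinned to 1100 UMIs and then given a state, the log2 ratio of S to neither was 1.42 and 1.62.

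Cells in the G2/M state were 14.7% and 16.7% of the microglia-like cells, held 18.2% and 22.5% of their UMIs, and held 54.6% and 62.9% of their histone UMIs. Cells in neither state held 23.0% and 18.1% of the histone UMIs. Of the members with at least 10 UMIs in microglia-like cells, 12 of 25 (control) and 28 of 40 (stressed) had over 50% of their UMIs in the G2/M state. Over all features with as many UMIs the share was 1.47% (132 of 8965) and 2.35% (248 of 10564). No member had over 50% of its UMIs in the S state. Over all features few did, 1.97% (177 of 8965) and 2.42% (256 of 10564), so this count does not set the members apart.

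The S state as defined includes cells that also expressed G2/M genes, and the histone RNA of the S state lay mostly in those. When microglia-like cells were split by which list reached 3 genes, cells with the S list only had 263 and 174 CPM of histone RNA, not above the 269 and 252 CPM of cells with neither list. Cells with both lists had 1720 and 1585 CPM and cells with the G2/M list only 1517 and 1208 CPM. The 79 control and 210 stressed cells with both lists held 49.1% and 64.7% of the histone UMIs. The G2/M state is mixed in the same way. Cells with the G2/M list only held 22.0% and 12.3% of the histone UMIs, against 54.6% and 62.9% in the G2/M state. These values therefore do not place the histone RNA after S phase. Depth moved with the split: the median UMI counts were 2544.5 and 4472 with the S list only, 3609 and 6179 with both and 2456 and 4446 with the G2/M list only, and their part in the result was not tested. The split was chosen after the values of the S state had been seen.

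**Figure D1:**
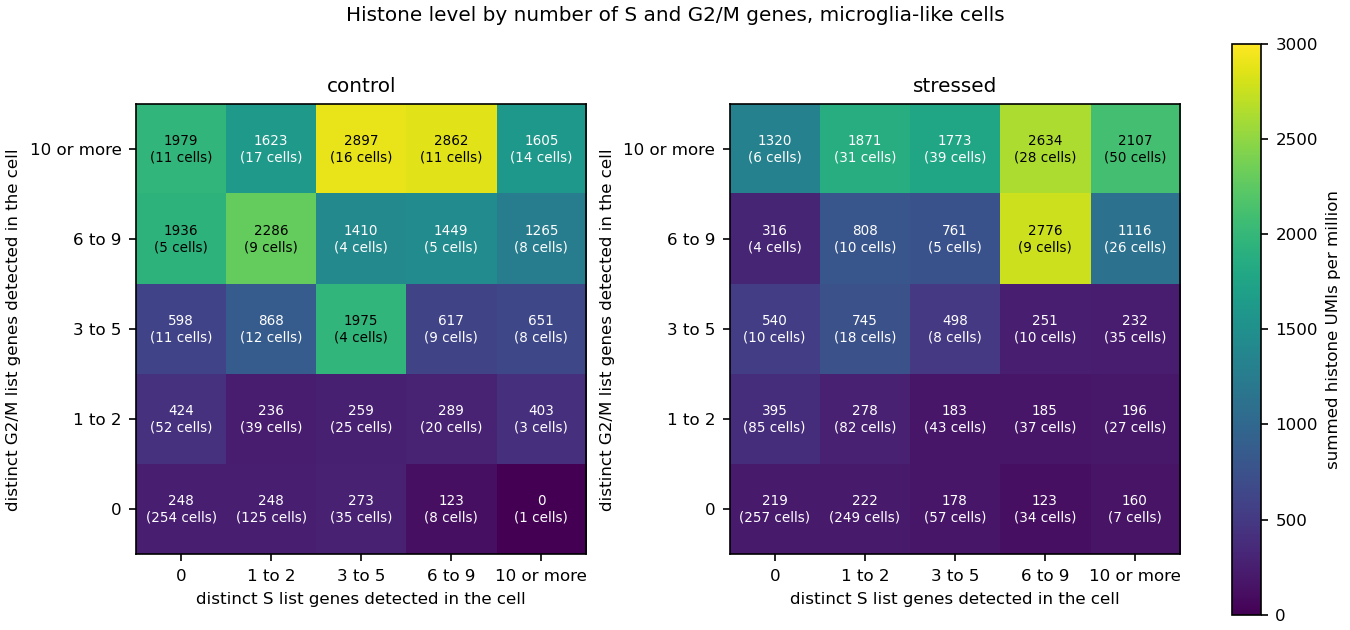
Summed histone CPM in microglia-like cells binned by the number of detected S list genes (horizontal axis) and G2/M list genes (vertical axis), 1 panel per library; the numbers in each box are the CPM of the summed members and the number of cells. Boxes with 10 or more G2/M genes lie between 1605 and 2897 CPM in the control and between 1320 and 2634 in the stressed library, while boxes with no G2/M gene reach at most 273 and 222 CPM.

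The grid of detected cycle genes shows the same in finer steps. Among cells with no G2/M gene the boxes lay between 0 and 273 CPM in the control and between 123 and 222 CPM in the stressed library. Those with many S genes rest on few cells. With 10 or more S genes there was 1 control cell with 0 UMIs, upper limit 1007 CPM, and 7 stressed cells with 8 UMIs. With 6 to 9 S genes the control had 8 cells and 3 UMIs. Among cells with 10 or more G2/M genes the lowest box of any kind was 1320 CPM.

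At full depth several members were found together in most cells of the G2/M state. The median number of distinct members detected per cell was 0 in neither state and 1 in the S state of each library, and 3 (control) and 5 (stressed) in the G2/M state. After thinning each cell to 1100 UMIs the medians were 2 (control) and 1 (stressed) in the G2/M state, the other order of the libraries, and 0 in the other states. For the thinned values of this paragraph each cell kept the state given at full depth. The libraries are thus not matched in depth for the state itself. At least 5 members were detected in 38.5% and 51.3% of G2/M cells, against 0.213% and 0.892% of cells in neither state. Depth sets these shares in part, and after thinning the shares in G2/M cells were 6.12% and 8.29%. The thinned share of cells with any histone UMI was 81.6% and 69.4% in the G2/M state, 31.3% and 25.4% in the S state, and 22.4% and 25.1% in neither state. Unthinned, the shares were 88.5% and 92.8%, 52.3% and 55.2%, and 36.8% and 48.9%.

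**Figure D2:**
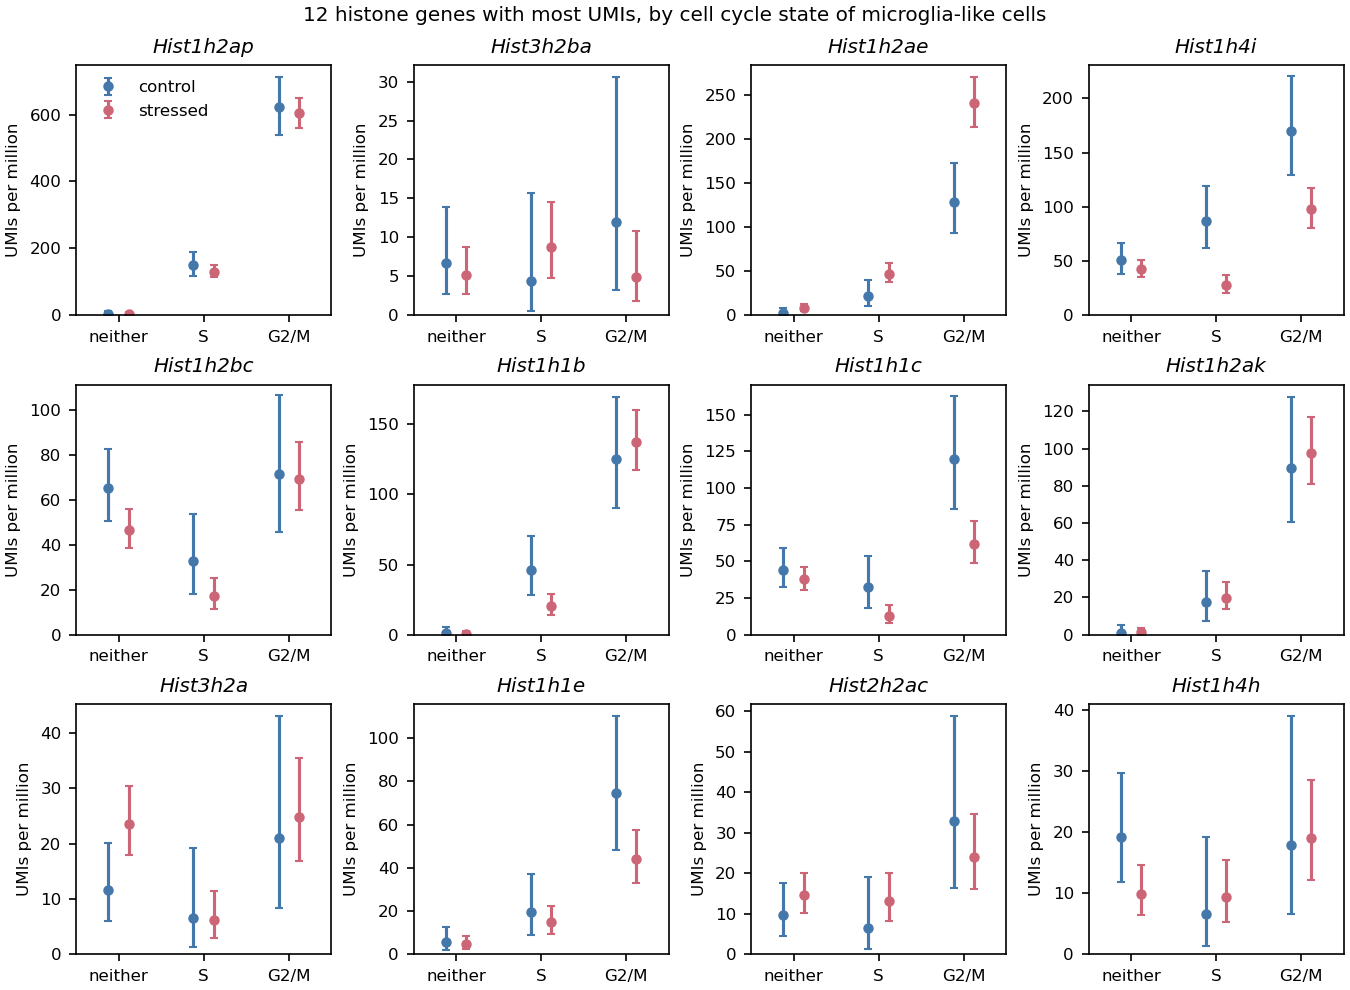
CPM of the 12 members with the most UMIs in microglia-like cells, by cell cycle state (horizontal axis) and library, each gene on its own linear axis from 0, with exact 95% Poisson intervals. Hist1h2ap, Hist1h2ae, Hist1h1b and Hist1h2ak differ most, by ratio, between neither state and the G2/M state, while 4 of the 12, Hist1h2bc, Hist1h4h, Hist3h2a and Hist3h2ba, differ by less than 2 times between them in each library. For Hist1h1b and Hist1h2ak the level in neither state rests on very few UMIs.

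The linker histone genes differed among themselves. Hist1h1b encodes H1.5 and had few UMIs outside the cycling states, with 0.960 and 0.787 CPM in neither state, 45.8 and 20.5 CPM in the S state and 125 and 137 CPM in the G2/M state (control and stressed). Its log2 ratio of G2/M to neither was 7.03 and 7.45. Of its 64 and 201 microglia-like UMIs very few were in neither state, so the size of these ratios is uncertain. Hist1h1e, which encodes H1.4, had 5.76 and 4.72 CPM in neither state and 74.7 and 43.9 CPM in the G2/M state, log2 ratios of 3.70 and 3.22. Hist1h1c, which encodes H1.2, was already at 44.2 and 37.8 CPM in neither state, with 32.7 and 13.05 CPM in the S state and 120 and 62.1 CPM in the G2/M state. Its share of UMIs in neither state was 45.5% and 50.0%, against 1.56% and 0.995% for Hist1h1b. Hist1h1d, which encodes H1.3, had 3 UMIs in neither state and 8 in the S state of stressed cells, a log2 ratio of 2.07 (0.02 to 4.62).

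Among the H2A genes Hist1h2ap had the largest counts and was almost wholly in cycling cells. It had 4.80 CPM in neither state, 150 in the S state and 621 in the G2/M state of the control library, and 4.72, 130 and 604 CPM in the stressed library. The log2 ratios to neither state were 4.97 (3.68 to 6.64) and 4.78 (3.95 to 5.76) for the S state, and for the G2/M state 7.02 in the control library. The thinned share of microglia-like cells with a Hist1h2ap UMI was 43.9% and 36.3% in the G2/M state, 9.38% and 9.36% in the S state, and 0.241% and 0.299% in neither state. Unthinned, these shares were 58.7% and 59.5%, 19.7% and 20.1%, and 1.06% and 1.78%. Removing Hist1h2ap from the sum left log2 ratios of G2/M to neither of 2.37 and 2.33, and of S to neither of 0.75 and 0.23.

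Hist1h2ae and Hist1h2ak followed the same order of states. Hist1h2ae had 2.88, 21.8 and 128 CPM in neither, S and G2/M of the control library and 7.87, 47.2 and 241 CPM in the stressed library. Hist1h2ak had 0.960, 17.4 and 89.6 CPM and 1.18, 19.9 and 97.7 CPM. Hist1h2an, a copy with 15.4% unique windows, had 1 UMI in neither state and 10 in the S state of each library, log2 ratios of 4.51 (1.69 to 9.94) and 3.98 (1.17 to 9.42). The other abundant H2A genes were less tied to these states. Hist2h2ac had 41.7% and 42.5% of its UMIs in neither state, and Hist3h2a 54.5% and 60.0%.

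Of the H2B genes, Hist1h2bc was the most abundant in microglia-like cells and was not highest in cycling cells by 2 times or more. It had 65.3 and 46.8 CPM in neither state, 32.7 and 17.4 CPM in the S state, and 71.7 and 69.5 CPM in the G2/M state. Its log2 ratio of S to neither in the stressed library was -1.43. Its share of UMIs in neither state was 63.6% and 51.5%. Hist1h2bc is annotated from 23684199 to 23692908 on chromosome 13. No stem-loop match was found in its longest protein-coding transcript, and its other transcripts were not searched.

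The H3 genes were scarce. Their sum in microglia-like cells was 5.76 and 10.6 CPM in neither state, 13.1 and 18.0 CPM in the S state, and 95.6 and 52.1 CPM in the G2/M state. The log2 ratio of G2/M to neither was 4.05 and 2.30.

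The most abundant H4 gene was Hist1h4i. It had 50.9 and 42.5 CPM in neither state, 87.2 and 28.0 CPM in the S state, and 170 and 97.7 CPM in the G2/M state. Hist1h4h had 19.2 and 9.84 CPM in neither state and 17.9 and 19.0 CPM in the G2/M state. Hist1h4d had 5 UMIs in the S state against 1 in neither state of the control library, a log2 ratio of 3.51 (0.35 to 9.07) on fewer than the 10 UMIs needed for a comparison, so it is not counted among the members called. In the stressed library it had 6 against 9, 0.07 (-1.70 to 1.73).

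**Figure D3:**
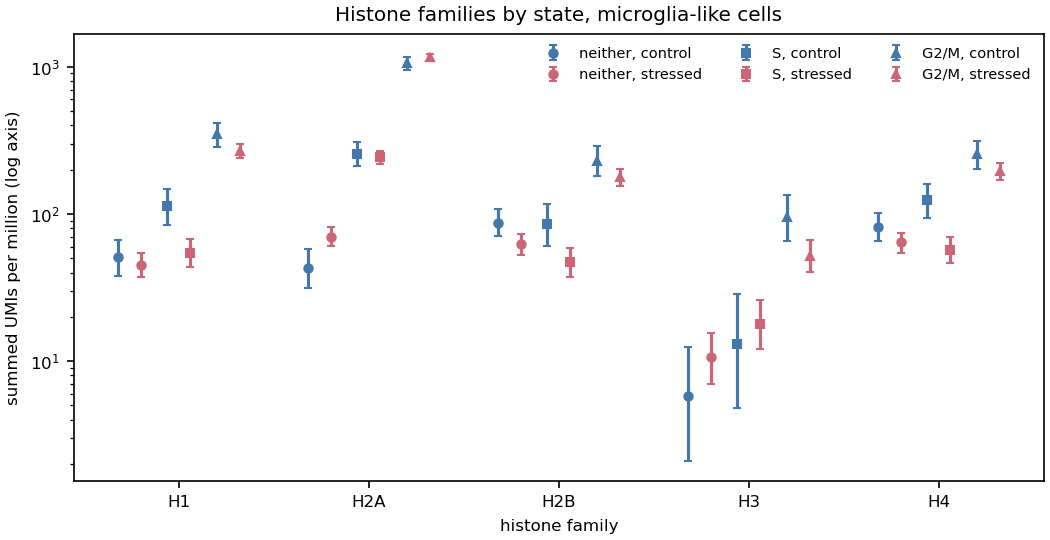
CPM of each histone family, summed over its members, by cell cycle state in microglia-like cells of each library, with exact 95% Poisson intervals. The H2A sum is the highest in the G2/M state, at 1058 CPM (control) and 1157 CPM (stressed), and the H2B sum is the highest in neither state of the control, at 87.4 CPM.

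By family the G2/M state was above neither state for each of the 5. The log2 ratios were 4.61 and 4.05 for H2A, 4.05 and 2.30 for H3, and 2.77 and 2.56 for H1. They were smaller for H4, 1.64 and 1.60, and for H2B, 1.40 and 1.51. In the S state the H2A sum was 257 and 243 CPM against 43.2 and 70.0 CPM in neither state. The H2B sum in the S state was 85.0 and 47.2 CPM, not above its 87.4 and 62.2 CPM in neither state.

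Counted member by member, with a member compared where the groups together held at least 10 UMIs and called past 2 times, 14 of 18 (control) and 27 of 33 (stressed) were higher in G2/M than in neither state. None was lower. Over all features compared in the same way, 9.3% and 9.0% were higher and 9.3% and 5.04% lower. The median log2 ratio of these members was 2.10 and 3.15, beside -0.0027 and 0.056 over all features. For the S state 5 of 13 and 10 of 24 members were higher, where 8.12% and 6.98% of all features were. In the S state 1 member of the control, Hist1h4h, was lower, and 3 of the stressed library, Hist3h2a, Hist1h1c and Hist1h2bc, at log2 ratios of -1.93, -1.53 and -1.43. Over all features 6.93% and 4.22% were lower. After thinning, 2 and 3 members passed for the S state, and with the state given after thinning 9 and 16. No share over all features is given beside these thinned counts. Members compared only through cells in which they are high had to differ, so these counts describe them and support nothing further.

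Split by the annotated 3′ end, the 17 members whose transcript ends within 100 bases of the stem-loop had 12.9% and 8.98% of their summed microglia-like UMIs in neither state. For the 11 with a longer end and AATAAA the shares were 31.7% and 24.5%, and for the 9 with a longer end without it 27.4% and 29.5%. The 17 members without a match had 26.2% and 18.9%. The low share of the first group came with Hist1h2ap, and without it the other 16 had 35.0% and 27.5%. Hist1h2ae, with a longer end and AATAAA, had 5.36% and 5.17%, and without it the other 10 of its group had 38.7% in each library.

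The summed histone RNA of microglia-like cells was at nearly the same level in both libraries. The control had 663 CPM (626 to 701). The stressed library had 662 CPM (641 to 685), which gives a log2 ratio of -0.00064 (-0.10 to 0.09). By state the log2 ratio of stressed to control was -0.09 (-0.30 to 0.12) in neither state, -0.50 (-0.70 to -0.29) in the S state and -0.10 (-0.23 to 0.02) in the G2/M state. The S state value moved with how depth entered the state. With states given after thinning to 1100 UMIs the same sums were 814 CPM (control) and 918 CPM (stressed), a log2 ratio of 0.17 (-0.07 to 0.42), the other direction. In the G2/M state it was then -0.09 (-0.22 to 0.04) and in neither state -0.02 (-0.19 to 0.15).

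Between the libraries H2A was higher in stressed cells, 367 against 282 CPM, with a log2 ratio of 0.38 (0.24 to 0.52), or 0.23 (0.08 to 0.38) without Hist1h2ae. H1 was lower at 98.1 against 120 CPM, -0.30 (-0.52 to -0.06). H2B was lower at 83.6 against 113 CPM, -0.43 (-0.67 to -0.19). H4 was lower at 91.4 against 124 CPM, -0.44 (-0.67 to -0.20). H3 was at 22.2 against 24.0 CPM, -0.11 (-0.62 to 0.42). Scaling by edgeR's trimmed mean of M values or by DESeq2's size factors added 0.08 to each and turned none of these directions. After thinning each cell to 1100 UMIs the log2 ratios were 0.23 for H2A, -0.19 for H1, -0.23 for H2B and -0.31 for H4, and 0.57 for H3, the other direction, and all 5 intervals included 0.

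Of 45 members with enough UMIs, 3 were higher by 2 times or more in the stressed microglia-like cells and 2 were lower by as much, beside 3.31% and 3.33% of all 11037 features compared. The 3 higher were the H2A genes Hist1h2ae, Hist1h2ai and Hist1h2ab, and the 2 lower Hist1h2bg and Hist1h4j. The median log2 ratio of the members was -0.09 and that of all features -0.07. Between 3 and 8 members were higher and between 0 and 6 lower over the processing alternatives. No share over all features is given beside those ranges. Hist1h2ab had 17 against 1 UMIs, a log2 ratio of 2.54 (-0.13 to 7.93), and Hist1h4j 12 against 9 UMIs, -1.13 (-2.50 to 0.29), so that both intervals include 0. Hist1h4a, with 11 UMIs in the stressed and 0 in the control cells, was at least 1.26-fold higher against a floor of 3 counts in the control.

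Hist1h2ae, an H2A gene, had 387 UMIs or 72.2 CPM in the stressed and 56 UMIs or 30.5 CPM in the control microglia-like cells. Stressed cells thus had 2.37 times the control level, a log2 ratio of 1.24 (0.84 to 1.67). Within states the log2 ratios were 1.45 (-0.30 to 3.84) in neither, 1.12 (0.16 to 2.23) in S and 0.91 (0.44 to 1.40) in G2/M. Its log2 ratio was 0.75 between the cells with Xist and without Y-linked UMIs, 231 and 1087 cells, which is under 2 times. The share of such cells differed between the pools, and its part in the value was not tested. Outside microglia-like cells it stood at 147 against 28.9 CPM in neuron-like cells, a log2 ratio of 2.35 (1.20 to 3.73), with 19 of the 52 stressed UMIs in 1 cell. It was 60.4 against 79.5 CPM in border-associated macrophage-like cells, -0.40 (-1.62 to 0.71), and 41.3 against 36.8 CPM in neural progenitor-like cells, 0.17 (-1.29 to 1.75).

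Hist1h2ai, an H2A gene with 10.7% unique windows, had 38 UMIs or 7.09 CPM in the stressed cells and 3 UMIs or 1.63 CPM in the control, with a log2 ratio of 2.12 (0.46 to 4.46). Hist1h2bg, the H2B gene that starts opposite Hist1h2ae, had 10 UMIs or 1.87 CPM against 11 UMIs or 5.99 CPM, -1.68 (-3.08 to -0.31). Hist1h2ap, in contrast, stood at 177 against 154 CPM, 0.21 (0.01 to 0.40). Its direction turned in 2 of 12 alternatives, to -0.23 after thinning each cell and to -0.02 in cells of neither state. Hist1h1b stood at 37.5 against 34.9 CPM, 0.10 (-0.31 to 0.53), and its direction turned in 1 of 11. Hist1h4i was lower in the stressed library, 50.6 against 81.7 CPM, -0.69 (-0.99 to -0.40), as was Hist1h1c, 35.8 against 55.0 CPM, -0.62 (-0.97 to -0.26).

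**Figure D4:**
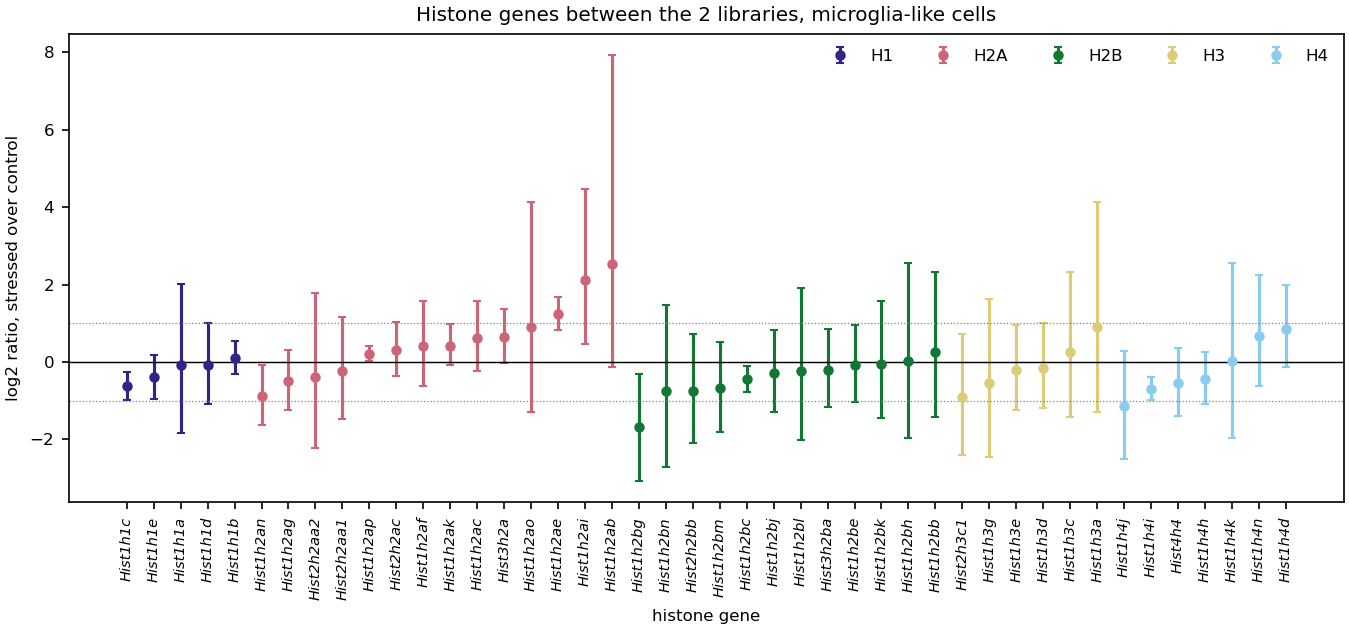
Log2 ratio of stressed to control CPM in microglia-like cells for the members compared that had UMIs in both libraries, grouped by family, with exact 95% intervals; an H4 gene at 0 UMIs in the control, Hist1h4a, is not drawn. Dotted lines mark 2 times in either direction, and 39 of the 44 members drawn lie within them; Hist1h2ae is at 1.24.

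Hist3h2ba, an H2B gene on chromosome 11, was found mainly in neuron-like cells. It had 489 and 584 UMIs over all barcodes, second in number to Hist1h2ap. Neuron-like cells held 392 and 465 of them, although they were 13.6% and 7.04% of the kept cells. Among cells in neither state it stood at 1738 CPM (1557 to 1935, 334 UMIs) in neuron-like cells of the control and at 6.72 CPM (7 UMIs) in microglia-like cells. In the stressed library the values were 1680 CPM (1510 to 1864, 356 UMIs) and 5.11 CPM (13 UMIs). The log2 ratios were 8.01 (6.96 to 9.34) and 8.36 (7.57 to 9.28).

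A Hist3h2ba UMI was found in 82.7% and 87.2% of neuron-like cells in neither state, and in 1.49% and 1.93% of microglia-like cells in that state. After thinning to 1100 UMIs the shares were 80.9% and 85.7% of neuron-like cells and 0.964% and 0.299% of microglia-like cells. The median depths behind them were 1359 and 2389 UMIs in neuron-like and 1939.5 and 3474 in microglia-like cells. Summed neuronal markers stood at 50.7 and 64.9 CPM in microglia-like cells, all 10 detected, against 7048 and 6338 CPM in neuron-like cells, and their part in the Hist3h2ba UMIs of microglia-like cells was not tested. Over all states together, Hist3h2ba stood at 231 and 210 CPM in neural progenitor-like cells, between these classes. The cycling microglia-like cells had 4.36 and 8.70 CPM of it in the S state and 11.95 and 4.97 CPM in the G2/M state.

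Its neighbour on chromosome 11, the H2A gene Hist3h2a, was also higher in neuron-like cells. In neither state it had 177 and 175 CPM in neuron-like cells against 11.52 and 23.6 CPM in microglia-like cells, log2 ratios of 3.94 (2.96 to 5.03) and 2.89 (2.26 to 3.502). Its annotated transcript overlaps Trim17, so its counts are uncertain. Over the members, 4 of 9 (control) and 6 of 12 (stressed) were at least 2 times higher in neuron-like cells, beside 28.3% and 29.4% of all features. Lower were 1 of 9 and 2 of 12, beside 22.1% and 19.4%. Hist1h2bc was the lower one in the control, 20.8 against 65.3 CPM, and Hist1h1c and Hist1h4i those in the stressed library.

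**Figure D5:**
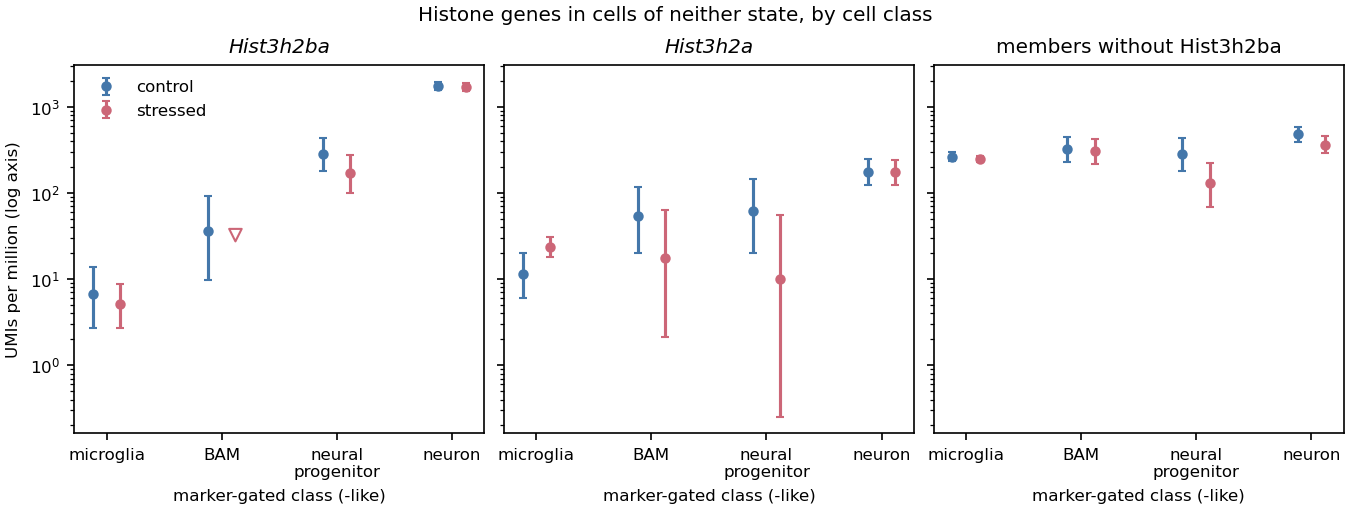
CPM (log axis) of Hist3h2ba, of Hist3h2a and of the summed members without Hist3h2ba, in cells of neither state, by marker-gated class and library; bars are exact 95% Poisson intervals, an open triangle marks the upper limit for a sum of 0, and BAM stands for border-associated macrophage. Hist3h2ba lies at 1738 and 1680 CPM in neuron-like cells and at 6.72 and 5.11 CPM in microglia-like cells.

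The summed histone RNA was higher in neuron-like than in neural progenitor-like cells. The control had 2396 against 1134 CPM, and the stressed library 2158 against 744 CPM. The log2 ratios of progenitor-like to neuron-like were -1.08 and -1.54. Without Hist3h2ba the ratio was 0.22 in the control, the other direction, and -0.66 in the stressed library. Without barcodes found in both libraries, 7 of which were progenitor-like cells of the control and 3 of the stressed library, it was -0.83 and -1.46. All these sums take in cells of every state. Cells in neither state were 55.9% and 56.6% of the progenitor-like and 87.6% and 78.8% of the neuron-like cells. In neither state, with Hist3h2ba included, the sums were 572 and 300 CPM in progenitor-like and 2217 and 2043 CPM in neuron-like cells. The part of the mix of states in these ratios was not tested.

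Cycling cells of other classes also carried Hist1h2ap. In the 13 and 10 neuron-like cells in the G2/M state it stood at 905 and 819 CPM, against 31.2 and 18.9 CPM in neither state, with 14 of 32 and 18 of 39 UMIs in 1 cell. In border-associated macrophage-like cells of the control it was 715 CPM in the 21 cells of the G2/M state, with 21 of 83 UMIs in 1 cell, and 27.0 CPM in neither state. Neural progenitor-like cells had 659 and 211 CPM of it in the 10 and 11 cells of the S state, with 15 of 25 and 9 of 19 UMIs in 1 cell. In their G2/M state it was 236 and 199 CPM, with 7 of 17 and 14 of 20 UMIs in 1 cell. Doublets remain in these sums, and their part was not tested.

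The genes that process histone mRNA summed to more in the S state than in the G2/M state. Slbp, the stem-loop binding protein, had 40.3 and 45.2 CPM in neither state, 126 and 111 CPM in the S state, and 71.7 and 57.1 CPM in the G2/M state. The 11 genes of this list summed to 244 and 214 CPM in neither state, 405 and 409 CPM in the S state, and 284 and 272 CPM in the G2/M state. Of 10 with enough UMIs in each library, 4 and 4 were at least 2 times higher in the S state, beside 8.12% and 6.98% of all features. In the G2/M state it was 2 of 9 and 0 of 10, beside 9.3% and 9.0%, with 1 lower in the control, beside 9.3%. The members' sum, by comparison, was highest in the G2/M state and that of the processing genes in the S state.

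Histone chaperones, which carry histones to DNA, summed to more in both cycling states than in neither. The 16 genes summed to 1239 and 1246 CPM in neither state, 2032 and 1998 CPM in the S state, and 1813 and 1854 CPM in the G2/M state. In the S state 9 and 7 of 16 were at least 2 times higher, beside 8.12% and 6.98% of all features. In the G2/M state it was 8 and 7, beside 9.3% and 9.0%, with 1 lower in the control, beside 9.3%. Nap1l1, which binds H2A and H2B, had 140 and 130 CPM in neither state, 297 and 260 CPM in the S state, and 251 and 267 CPM in the G2/M state. Rbbp4, a histone-binding subunit of several complexes, had 163 and 154, 249 and 236, and 224 and 226 CPM in these states.

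The replication-independent histone genes, most of which give polyadenylated mRNA, gave higher sums than the members in each state. Stem-loop mRNA without a poly(A) tail is not counted for the members, so these sums are unlike measures. The replication-independent genes summed to 4085 and 3902 CPM in neither state, 5090 and 4750 CPM in the S state, and 9312 and 8698 CPM in the G2/M state. H2afz, which encodes H2A.Z, had 893 and 832 CPM in neither state, 1993 and 1673 CPM in the S state, and 3618 and 3407 CPM in the G2/M state. H3f3a, which encodes H3.3, had 835 and 918 CPM in neither state, 759 and 870 CPM in the S state, and 869 and 1003 CPM in the G2/M state. H3f3b, the other H3.3 gene, had 1113 and 1044, 1031 and 967, and 1837 and 1720 CPM. Between the libraries 1 of 11 genes, H1fx, was at least 2 times higher in stressed microglia-like cells, on 25 against 1 UMIs, a log2 ratio of 3.10 (0.49 to 8.46), and none was lower. Over all features 3.31% were higher and 3.33% lower. It was named after its values were seen. None of the 10 processing genes and 16 chaperones was past 2 times in either direction.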

How the data were processed

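Polyadenylated RNA of sorted cells was counted in droplets, with 1 library of pooled embryos per condition. The authors deposited raw UMI counts per gene and called cell barcode, as the file header marks them whole numbers. Per the submitters' processing notes, Cell Ranger 3.0.0, STAR and Seurat 2.4 were used on the mouse build GRCm38.p5, also called mm10; the role of each tool is not given there. How reads that match several histone genes were treated is not given in the sources used here, so counts of near copies and family sums are uncertain.

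From the deposited counts, cells with under 500 genes or over 10% mitochondrial UMIs were left out, 88 control and 48 stressed cells for genes and 0 and 12 for mitochondrial UMIs. A class needed at least 2 of the 10 markers of 1 list and a lead of at least 1 over the next of 7 lists. UMIs were summed per library, class and state and divided by the total of the same cells (CPM). Ratios carry exact conditional binomial intervals, sums Poisson intervals and shares Clopper-Pearson intervals, each exact and at 95%. A sum of 0 was set to 3 counts. A gene was compared with at least 10 UMIs over both groups and called at 2 times. Shares were repeated after thinning each cell to 1100 UMIs, leaving out shallower cells. In these shares a cell kept the state given at full depth, except where the state is said to be given after thinning. Scripts were tested on simulated data. Analyses used Python 3.11.15, numpy 2.4.6, scipy 1.17.1, pandas 2.3.3, scanpy 1.11.5, R 4.3.3, edgeR 4.0.16 and DESeq2 1.42.0, the last 2 for scaling factors only.

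Members, lists, and named genes (the 12 members with most UMIs, others past 2 times whose interval leaves out 0, and the leading 3 of each list) were chosen with earlier results of these data known. The numbers of the gates, the split by lists, the removal of Hist3h2ba, Hist1h2ae or Hist1h2ap from sums of their groups, the thinned family sums, and the stressed to control sums with states given after thinning were chosen after seeing the data. Alternatives were another scaling, filter, gate, clustering (Leiden, without histone genes), doublet removal (Scrublet, whose own threshold marked 2 and 3 cells, so the highest 3.5% were left out), thinning and cells with Xist only. No doublets were removed in the values reported. Whether replicates would vary more than these counting intervals cannot be told from 1 library per condition.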

Additional observations from a re-analysis of the deposited data

How the results depend on the processing

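No paired analysis was possible because each group has a single library. Of the values recomputed for the designed comparisons 100 stayed within their interval or count range, 30 moved and 1 reversed; for single genes 365 stayed and 27 moved. The stressed to control log2 ratio of the summed members in microglia-like cells, -0.00064, was -0.11 among cells with Xist and without Y-linked UMIs and 0.19 when, for each gene, the top 1% of cells by its UMIs were left out. The count of members at least 2 times higher, 3, was 5 after thinning, 6 under stricter cell limits of 1000 genes and 5% mitochondrial UMIs and 8 without the top 1% of cells. The count lower, 2, was 1 without the highest Scrublet scores and with a stricter marker gate, 4 with Leiden clusters, 6 among cells with Xist, and 0 in cells of neither state and without the top 1%. The S to neither log2 ratio, 1.14 (control) and 0.74 (stressed), was 1.42 and 1.62 with states given after thinning and 0.75 and 0.23 without Hist1h2ap. In the stressed library it was also 0.51 after thinning and with a gate of 2 genes, and 0.91 with 5 genes. The G2/M to neither log2 ratio, 2.88 and 2.87, was 2.37 and 2.33 without Hist1h2ap and 3.23 and 3.39 without the top 1% of cells, and 3.10 in the thinned control. Members higher in the S state, 5 and 10, were 2 and 3 after thinning, 9 and 16 with states given after thinning, and 3 in the control under the stricter cell limits. No share over all features under the same alternatives is given beside the counts of members in this section. Whether members moved otherwise than all features cannot be told from them. The progenitor-like to neuron-like ratio, -1.08 and -1.54, was 0.22 and -0.66 without Hist3h2ba, and -0.83 in the control without barcodes found in both libraries. The causes were not tested. Hist1h2ae stayed higher in the stressed library under 12 alternatives, between 0.75 and 1.86, and past 2 times in 11. Depth limits single members: 40 of 54 had under 100 UMIs.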
